A study of Mus musculus with 3 samples.

Results

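The genes described here make and use glutathione, remove peroxides and superoxide, run the thioredoxin system or bind metals, together with the NRF transcription factors linked to them. They were named as a list of 40 genes, 35 of which were represented on the array among 7842 genes with a probe set annotated to a single symbol. Where a gene had more than 1 probe set, the brightest on average was used. Of the 35, 32 had a signal above the floor on all 3 arrays, the floor being the 40th percentile of an array's probe sets (121 to 123). Gsta3, Gstt2 and Slc7a11 lay below the floor on every array, with signals of 5.94 to 48.9. Prdx1 shared its probe sets with another symbol and was left out, and Prdx5, Prdx6, Blvrb and G6pdx were not analysed here.

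Glutathione is a cysteine-containing tripeptide made by glutamate-cysteine ligase (Gclc and Gclm) and glutathione synthetase (Gss), and reduced again by glutathione reductase (Gsr). Peroxidases and S-transferases spend it on peroxides and on electrophiles, while thioredoxin, its reductase and the peroxiredoxins form a parallel thiol system. NRF2, encoded by Nfe2l2, binds antioxidant response elements and is known for inducing Gclm, Gclc, Txnrd1, Nqo1 and Hmox1 in many cell types. Metallothioneins bind zinc and copper through their cysteines and are induced by metals through MTF1 at metal response elements.

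Mouse dermal fibroblasts of 3 genotypes, 1 array column each, were compared on Affymetrix expression arrays. FGFR3Act cells came from mice with the Fgfr3G374Rneo- allele, in which the receptor is active without its ligand, and FGFR3KO cells from FGFR3G374Rneo+ mice, which make no working receptor. The comparison cells, FGFR3WT, were from wild type Bl6 animals. Fibroblast growth medium was used throughout with no treatment, and the age of the animals was not given. The series states 3 per group, but whether a column is a culture, a pool or a mean is not given, so no spread between replicates, SD or p-value can be attached to any difference.

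Fgfr3 itself lay far below the floor on each array (1.06 to 3.76) and could not check the genotypes. All 14 fibroblast markers on the array were above the floor on every array, with a summed signal of 57250 on FGFR3Act against 83861 on FGFR3KO and 62434 on FGFR3WT. On FGFR3Act 10 of the 14 were lower than on FGFR3WT (median log2 difference -0.29), where 2923 of all 5244 genes were lower (median -0.07). Against FGFR3KO 11 of the 14 were lower on FGFR3Act (median -0.55), where 2820 of all 5297 genes were lower (median -0.05). The part of the fibroblast markers in the lower FGFR3Act signals below was not tested. Among 20 measured markers of macrophages and leukocytes, FGFR3Act had 17 above the floor, FGFR3KO had 2 and FGFR3WT had 1, and their summed signal was 43740 on FGFR3Act against 1524 and 1315. Of the defining markers Lyz2, Cd68, Csf1r, Tyrobp and Ptprc, 4 were above the floor on FGFR3Act and 0 on the other arrays, with Ptprc below it everywhere. The FGFR3Act array therefore differed from the other arrays in these transcripts as well as in genotype, and the part of macrophage RNA in any FGFR3Act value below was not tested. In such bulk RNA, fewer cells of a type and less RNA per cell cannot be told apart. The ratio of the 3' to the 5' beta-actin control probe sets, a measure of RNA length, was 1.44 to 1.82.

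Promoter windows of 4 members are shown first, because the results turn on the NRF2-linked enzymes and on the metallothioneins. Each spans 250 bases before to 50 after an annotated start site and is taken from RefSeq on GRCm38.p6. For Gclm (chr3:122245307-122245606, plus strand) and for 1 of 3 Txnrd1 windows (chr10:82858956-82859255, plus strand), capitals mark the antioxidant response core, TGACNNNGC read on either strand. For Mt1 (chr8:94178839-94179138, plus strand) and Mt2 (chr8:94172368-94172667, plus strand), capitals mark the metal response core, TGCACNC or TGCGCNC read on either strand.
Gclm: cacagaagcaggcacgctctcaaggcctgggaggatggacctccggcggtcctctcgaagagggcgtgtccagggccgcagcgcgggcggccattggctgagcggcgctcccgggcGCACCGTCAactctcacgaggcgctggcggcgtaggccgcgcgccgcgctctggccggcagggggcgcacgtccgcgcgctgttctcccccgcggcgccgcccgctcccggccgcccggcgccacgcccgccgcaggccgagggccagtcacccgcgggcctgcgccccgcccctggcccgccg
Txnrd1: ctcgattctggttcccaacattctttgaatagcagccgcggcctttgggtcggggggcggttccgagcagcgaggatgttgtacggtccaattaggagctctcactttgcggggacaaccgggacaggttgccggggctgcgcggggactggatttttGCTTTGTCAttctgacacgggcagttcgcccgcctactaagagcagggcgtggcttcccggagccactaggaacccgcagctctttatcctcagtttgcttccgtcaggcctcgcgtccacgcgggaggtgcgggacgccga
Mt1: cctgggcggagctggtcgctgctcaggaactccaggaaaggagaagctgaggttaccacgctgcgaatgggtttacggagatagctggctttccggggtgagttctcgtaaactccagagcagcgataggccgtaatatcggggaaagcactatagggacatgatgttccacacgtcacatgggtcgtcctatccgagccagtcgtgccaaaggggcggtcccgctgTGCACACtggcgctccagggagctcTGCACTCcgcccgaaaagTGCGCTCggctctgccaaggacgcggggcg
Mt2: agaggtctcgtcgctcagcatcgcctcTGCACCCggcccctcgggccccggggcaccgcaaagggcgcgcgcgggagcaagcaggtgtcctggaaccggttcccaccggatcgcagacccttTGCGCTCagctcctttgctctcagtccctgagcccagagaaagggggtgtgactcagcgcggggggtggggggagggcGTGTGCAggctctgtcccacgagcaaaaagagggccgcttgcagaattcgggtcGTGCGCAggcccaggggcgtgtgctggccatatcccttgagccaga

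The antioxidant core lay on the minus strand from -134 to -126 in Gclm and from -92 to -84 in Txnrd1, counted from the start site as +1. In Gclm a metal response core from -138 to -132 overlapped it. Mt1 held 3 metal response cores, starting at -23, 3 and 21, and Mt2 held 4, starting at -223, -128, -50 and 5. The Mt2 window also had an antioxidant core from -79 to -71 that overlapped a match to the AP-1 motif TGANTCA.

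Among the 27 measured members in the promoter table, 7 had an antioxidant core in a window (25.9%), against 13.99% of all 27025 genes in the table. They were Gclm, Txnrd1, Mt2, Gstm5, Mgst1, Sod1 and Nfe2l2. The metal core was present in 8 of the 27 (29.6%) against 28.2% of all genes, and the AP-1 motif in 3 (11.1%) against 8.97%. The single Nqo1 window held none of these letters, and Gclc, Gsr and Hmox1 were not in the table. For the 7 members with an antioxidant core, log2 differences of FGFR3Act from FGFR3WT ran from -0.41 (Mt2) to 1.40 (Gclm), with a median of 0.51. The other 20 had a median of 0.11. In the same pair the 8 members with a metal core had a median of -0.32 and the 19 without 0.22. For the AP-1 motif the medians were -0.41 for the 3 with it and 0.22 for the 24 without. A split by motif was thus not particular to the antioxidant core. A match is a description of these letters, not a binding site.

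**Figure D1:**
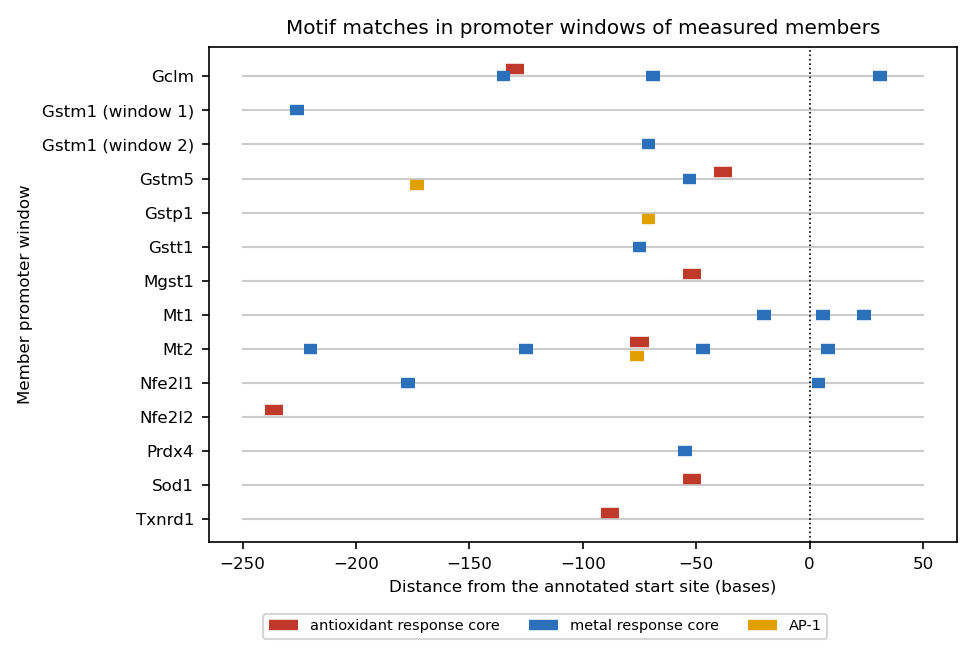
Positions of motif matches, in bases from the annotated start site (x axis), in each promoter window of a measured member with at least 1 match (y axis); red marks the antioxidant response core, blue the metal response core and orange the AP-1 motif. Mt1 has 3 metal response cores and Mt2 has 4, and Gclm and Txnrd1 each have 1 antioxidant core before the start site.

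In the comparison of FGFR3Act with FGFR3WT, which asked what accompanies an active receptor, the NRF2-linked enzymes Nqo1, Gclm and Txnrd1 were higher and the secreted peroxidase Gpx3 was lower. Of the 32 members, 3 stood 2-fold or more above wild type (Nqo1, Gclm and Txnrd1) and 3 stood 2-fold or more below it (Gpx3, Gstt1 and Prdx4). Over all 5244 genes of this pair, 4.14% stood 2-fold or more above and 4.79% below. After median centring those genes divided into 276 higher and 168 lower, in place of 217 and 251. The members had a median log2 difference of 0.14, against -0.07 for all genes, and 19 of 32 (59.4%) were higher, against 44.3% of all genes. Median centring raised the median of all genes from -0.07 to 0.06 and that of the members from 0.14 to 0.26.

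In the comparison of FGFR3KO with FGFR3WT, which asked what accompanies loss of the receptor, 0 of 32 members were 2-fold apart in either direction. Over all 5184 genes, 1.93% stood 2-fold or more above wild type and 3.61% below, and after median centring the numbers were 130 and 139 in place of 100 and 187. The lowest member was Prdx3 (log2 difference -0.96) and the highest, in the deposited scaling, Prdx2 (0.68). After quantile normalisation Prdx2 was at 0.23, below Mgst1 (0.69), Gclm (0.62) and Nqo1 (0.55). The median was 0.09 against -0.02 for all genes, and 22 of 32 members (68.8%) were higher, against 48.5% of all genes. Both comparisons use the same FGFR3WT array, so a high or low signal there enters both.

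Set directly against FGFR3KO, FGFR3Act had 1 member 2-fold or more above, Txnrd1, and 3 below, Gpx3, Gstt1 and Prdx4. Over all 5297 genes of this pair, 8.33% stood 2-fold or more above and 7.49% below. The median of the members was 0.16 against -0.05 for all genes. Over the genes above the floor on all 3 arrays, FGFR3Act had the highest signal in 15 of 32 members (46.9%) and in 31.5% of 4503 genes. FGFR3WT had the lowest in 16 of 32 (50%) and in 21.3%.

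**Figure D2:**
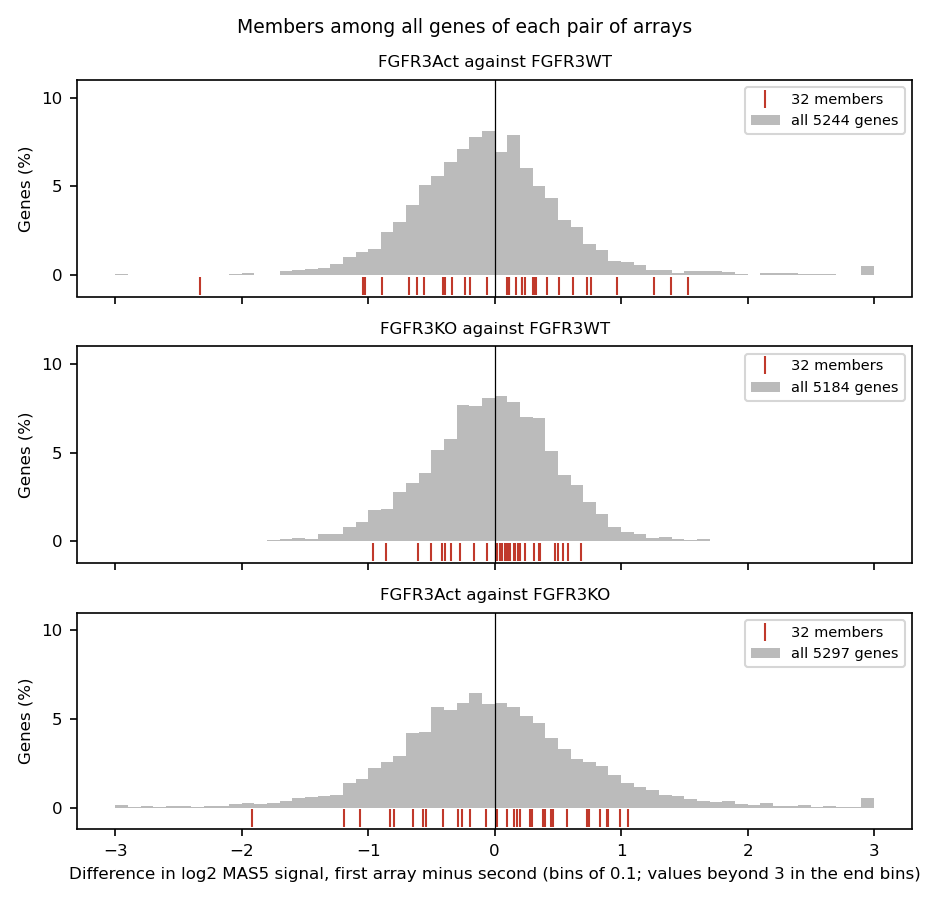
Distribution of log2 signal differences over all genes of each pair of arrays (grey bars, percent of genes in bins of 0.1, values beyond 3 in the end bins), with the 32 measured members as red ticks. Against FGFR3WT the members ran from -2.33 to 1.53 on FGFR3Act and from -0.96 to 0.68 on FGFR3KO.

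Enzymes of glutathione synthesis and recycling were higher on FGFR3Act than on FGFR3WT in 4 of 4 measured members, where 44.3% of all genes were higher. Their median log2 difference was 0.52, against -0.07 for all genes, and the smallest was 0.11 (Gsr). Gclm, the modifier subunit of glutamate-cysteine ligase, gave a signal of 2359 on FGFR3Act against 1269 on FGFR3KO and 895 on FGFR3WT. It stood 2.64-fold above FGFR3WT on FGFR3Act, ranking 120 from the top of 5244 genes, and FGFR3KO lay between. Gclc, the catalytic subunit of the same enzyme, had 417, 341 and 337 in that order, so its signal differed by 1.24-fold where that of Gclm differed by 2.64-fold.

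Gss, which adds glycine in the last step of synthesis, gave a signal of 946 on FGFR3Act against 511 on FGFR3KO and 571 on FGFR3WT. On FGFR3Act it stood 1.66-fold above FGFR3WT and 1.85-fold above FGFR3KO. Gsr, which restores reduced glutathione with NADPH, had 765, 588 and 709, with FGFR3KO lowest. Slc7a11, the cystine transporter that supplies the cysteine, was below the floor on each array (10.5 to 29.3), so no difference could be read for it.

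In the thioredoxin system the reductase was 2-fold apart and the thioredoxins were not. Txnrd1, the cytosolic thioredoxin reductase, gave a signal of 2221 on FGFR3Act against 1070 on FGFR3KO and 930 on FGFR3WT. That was 2.39-fold above FGFR3WT and 2.08-fold above FGFR3KO, and the mutant without a receptor stayed within 1.15-fold of wild type. Txn1, cytosolic thioredoxin itself, was highest on FGFR3KO, with 8655 on FGFR3Act against 10366 on FGFR3KO and 7433 on FGFR3WT. Its mitochondrial counterpart Txn2 had 2421, 2138 and 2052, within 1.18-fold.

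Among the quinone and heme enzymes, Nqo1 stood furthest apart of all members above wild type. This quinone reductase, a widely used readout of NRF2, gave a signal of 399 on FGFR3Act against 201 on FGFR3KO and 138 on FGFR3WT, a 2.89-fold difference between FGFR3Act and FGFR3WT. The FGFR3WT signal was close to the floor of 121. A second Nqo1 probe set read 349 on FGFR3Act, and 111 and 87.1 on FGFR3KO and FGFR3WT, both below the floor, so it too was highest on FGFR3Act. Both Nqo1 probe sets are of kinds that may match other transcripts, and with the floor at the 60th percentile its difference from FGFR3WT shrank from 1.53 to 0.15.

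Hmox1, the inducible heme oxygenase and another NRF2 target, was 1.25-fold above wild type on FGFR3Act. Its signals were 4822 on FGFR3Act against 2707 on FGFR3KO and 3844 on FGFR3WT, with FGFR3KO the low array (1.42-fold below wild type). The constitutive Hmox2 had 180, 156 and 145. Of the 6 measured members named as NRF2-linked (Gclc, Gclm, Gsr, Txnrd1, Nqo1 and Hmox1), all had a higher signal on FGFR3Act than on FGFR3WT. Their log2 differences ran from 0.11 (Gsr) to 1.53 (Nqo1), with a median of 0.79, where 44.3% of all genes were higher. These 6 were named with earlier results of these data known. The remaining 26 members were not sorted by whether NRF2 induces them. The 6 of 6 is therefore not a count over all NRF2 targets among the members. These 26 had a median of 0.02, with 13 higher and 13 lower, and they include the S-transferases, 6 of 8 of which were lower. Against FGFR3WT, FGFR3KO was higher in 4 of the 6 NRF2-linked members and lower in 2, with a median of 0.11.

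The transcription factor genes differed less than Gclm, Txnrd1 and Nqo1. Nfe2l2, encoding NRF2, gave a signal of 1962 on FGFR3Act against 1424 on FGFR3KO and 1274 on FGFR3WT, 1.54-fold above wild type on FGFR3Act. The related Nfe2l1, whose product controls proteasome genes, had 2116, 1606 and 1588. Its second, dimmer probe set pointed the other way, with 99.7 on FGFR3Act, below the floor, 141 on FGFR3KO and 165 on FGFR3WT. With the mean of both probe sets the Nfe2l1 difference of FGFR3Act from FGFR3WT changed from 0.41 to -0.16, so its direction is not settled.

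**Figure D3:**
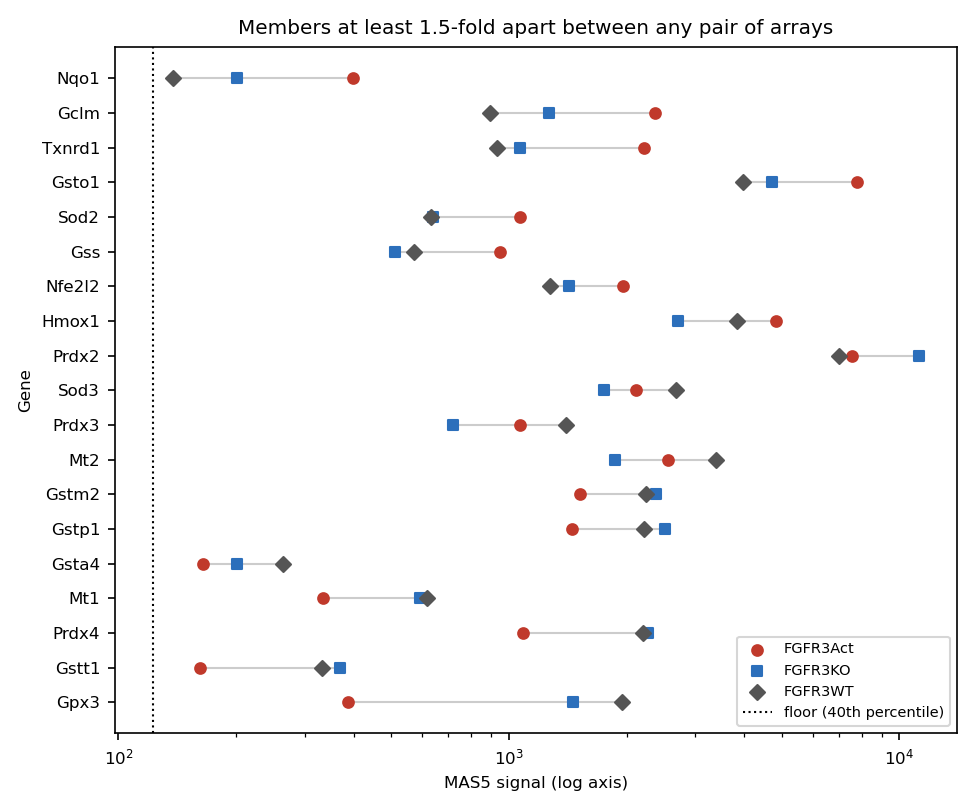
MAS5 signal (x axis, log scale) of the 19 members at least 1.5-fold apart between any pair of arrays (y axis, ordered by FGFR3Act minus FGFR3WT); red circles are FGFR3Act, blue squares FGFR3KO and grey diamonds FGFR3WT, 1 array each, and the dotted line is the floor. Nqo1, Gclm and Txnrd1 at the top have FGFR3Act furthest right, and Gpx3, Gstt1 and Prdx4 at the bottom have it furthest left.

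Of the peroxidases that use glutathione, only the secreted one stood apart among the 3 measured. Gpx3, the extracellular glutathione peroxidase of plasma and matrix, gave a signal of 388 on FGFR3Act against 1462 on FGFR3KO and 1948 on FGFR3WT. It was 5.02-fold lower on FGFR3Act than on FGFR3WT, ranking 12 from the bottom of 5244 genes, and 3.77-fold lower than on FGFR3KO. The cytosolic Gpx1 had 802, 793 and 748 and did not reach 1.1-fold in any pair, and Gpx4, which reduces lipid hydroperoxides in membranes, had 754, 680 and 864. The log2 difference of Gpx3 from FGFR3WT lay between -2.33 and -2.20 under all 9 alternative settings. On the same FGFR3Act array 17 of 20 macrophage markers were above the floor. There 10 of 14 fibroblast markers were lower than on FGFR3WT, beside 2923 of all 5244 genes. The part of either set of markers in the Gpx3 value was not tested.

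Glutathione S-transferases, which attach glutathione to electrophiles, were higher on FGFR3Act than on FGFR3WT in 2 of 8 measured members and lower in 6, where 44.3% of all genes were higher. Their median log2 difference was -0.40, and 1 of the 8 was 2-fold lower. For Gstm1, among the 6, the sign changed with median centring (0.06 in place of -0.06). Gstt1, the theta-class enzyme that acts on small halogenated compounds, gave a signal of 162 on FGFR3Act against 370 on FGFR3KO and 332 on FGFR3WT. It was 2.06-fold below wild type and 2.29-fold below FGFR3KO, with the FGFR3Act signal near the floor. Its difference from FGFR3WT was just under 2-fold after quantile normalisation (-0.99) and median centring (-0.92) and with an offset (-0.99), and with the floor at the 60th percentile its difference from FGFR3KO was -0.14.

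Gsta4, which conjugates the lipid peroxidation product 4-hydroxynonenal, had 165 on FGFR3Act against 201 on FGFR3KO and 264 on FGFR3WT. Gstp1, the pi-class enzyme, had 1451, 2515 and 2215, and was 1.73-fold lower on FGFR3Act than on FGFR3KO. Gstm2 had 1523, 2380 and 2242, with FGFR3Act lowest again. The mu-class genes Gstm1 and Gstm5 differed by 1.33-fold and 1.46-fold at most. Mu-class genes are near copies of each other, and the probe sets used for Gstm1 and Gstm5 are of the family kind, so signal may be shared between them. Gstp1 likewise has a close copy in the mouse genome.

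The remaining pair, Gsto1 and Mgst1, was higher on FGFR3Act than on FGFR3WT. Gsto1, the omega-class enzyme with thioltransferase and dehydroascorbate reductase activity, gave a signal of 7803 on FGFR3Act against 4707 on FGFR3KO and 3981 on FGFR3WT. This was 1.96-fold above wild type, and after median centring it passed 2-fold (1.10 in log2). Mgst1, the microsomal transferase of membranes, was higher in both mutants, with 1342 on FGFR3Act against 1407 on FGFR3KO and 941 on FGFR3WT. On FGFR3KO 7 of the 8 measured transferases were higher than on FGFR3WT, none by 1.5-fold, with a median of 0.21, where 68.8% of the members and 48.5% of all genes were higher. For Gstm5, among the 7, the sign changed from 0.31 to -0.19 after quantile normalisation, and its second probe set gave -0.05.

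Peroxiredoxins, thiol peroxidases that thioredoxin or other thiols recycle, did not share a direction. Prdx4, the enzyme of the endoplasmic reticulum and secretory pathway, gave a signal of 1083 on FGFR3Act against 2267 on FGFR3KO and 2203 on FGFR3WT. It was 2.03-fold below wild type on FGFR3Act and level on FGFR3KO. Quantile normalisation (-0.998 in log2) and median centring (-0.90) each put its difference from FGFR3WT just under 2-fold.

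Prdx3, the mitochondrial peroxiredoxin, was low on FGFR3KO instead. It had 1067 on FGFR3Act against 719 on FGFR3KO and 1398 on FGFR3WT, a 1.94-fold difference between FGFR3KO and FGFR3WT that ranked 217 from the bottom of 5184 genes. Cytosolic Prdx2 was highest on FGFR3KO, with 7558, 11202 and 6986 in the same order of arrays. Its second probe set had 840, 922 and 693, also highest on FGFR3KO. For FGFR3Act the Prdx2 difference from wild type was near 0 (0.11, and -0.11 after quantile normalisation).

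Superoxide dismutases convert superoxide to hydrogen peroxide, and catalase breaks that down. Sod2, the mitochondrial manganese enzyme that NF-kB signalling induces, gave a signal of 1068 on FGFR3Act against 638 on FGFR3KO and 632 on FGFR3WT, and was 1.69-fold above wild type on FGFR3Act. Sod3, the extracellular enzyme bound to heparan sulfate in matrix, was highest on FGFR3WT, with 2119 on FGFR3Act against 1750 on FGFR3KO and 2670 on FGFR3WT. Cytosolic Sod1 had 5946, 5568 and 5108, and Cat had 417, 478 and 372. Neither of the last 2 was 1.5-fold apart in any pair.

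Both metallothioneins among the members, Mt1 and Mt2, were highest on FGFR3WT in the deposited scaling, and each was lowest on a different mutant. For Mt1 the highest array changed with other scalings, as given below. Mt1 gave a signal of 333 on FGFR3Act against 591 on FGFR3KO and 617 on FGFR3WT, 1.85-fold lower on FGFR3Act than on FGFR3WT. Mt2 had 2551 on FGFR3Act against 1873 on FGFR3KO and 3391 on FGFR3WT, 1.81-fold lower on FGFR3KO. The genes lie side by side with 0 protein-coding genes between them in the RefSeq table, and their windows with 3 and 4 metal response cores are printed above. For Mt1 on FGFR3KO the sign changed with the scaling, from -0.06 to 0.02 with both quantile normalisation and median centring. Mt3, a metallothionein of the metal list below, was highest on FGFR3KO instead, with 476 on FGFR3Act against 635 on FGFR3KO and 533 on FGFR3WT. Mt4 was below the floor on every array.

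**Figure D4:**
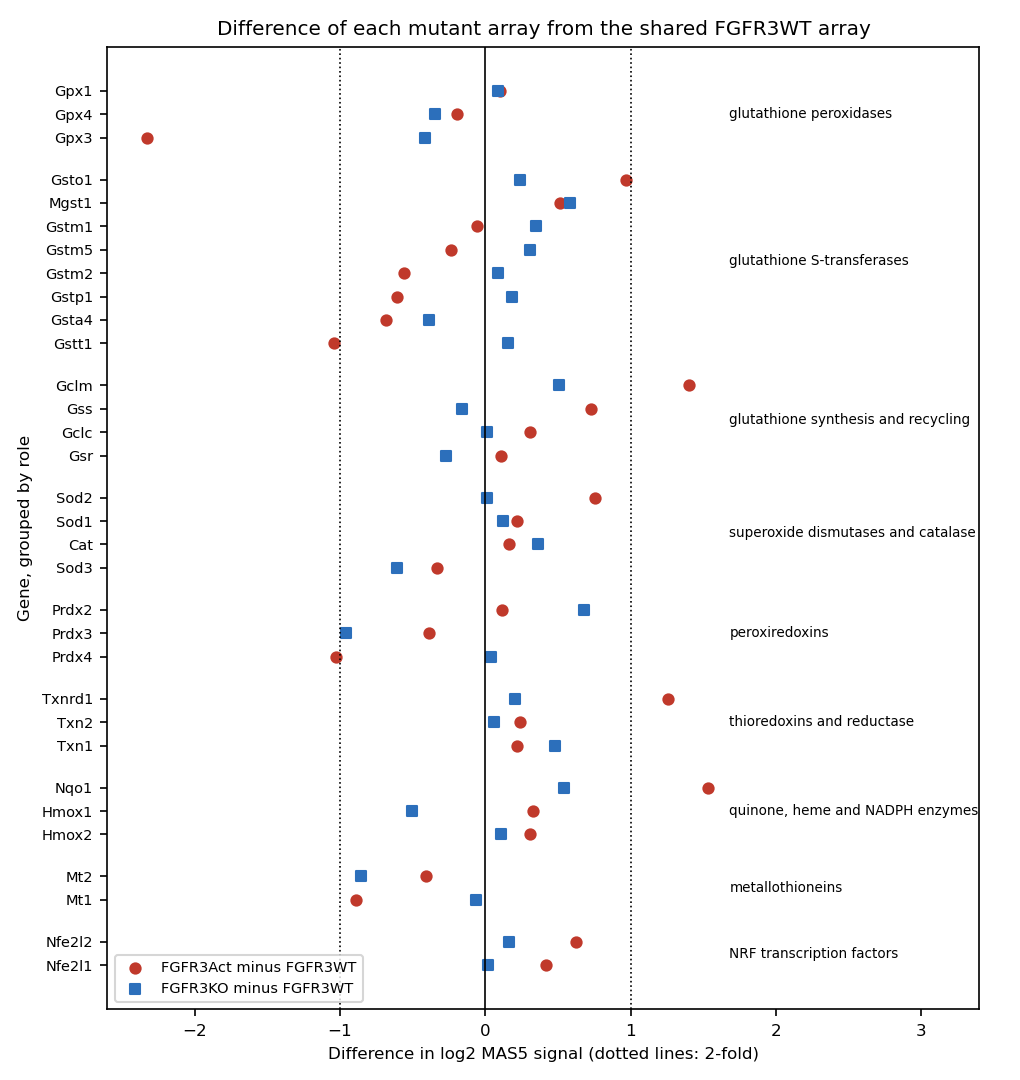
Difference in log2 MAS5 signal from the shared FGFR3WT array (x axis) for each of the 32 measured members (y axis, grouped by role); red circles are FGFR3Act and blue squares FGFR3KO, 1 array each, and dotted lines mark 2-fold. All 4 synthesis and recycling genes lie right of 0 on FGFR3Act, 6 of 8 S-transferases lie left of it, and no FGFR3KO point crosses a dotted line.

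Other genes of these pathways, in lists written with earlier results of these data known, were read the same way. Of 18 other NRF2 regulators and NRF2-linked genes compared with FGFR3WT, 3 stood 2-fold or more above it on FGFR3Act and 0 below, beside 4.14% and 4.79% of all genes. Their median log2 difference was 0.21, and on FGFR3KO it was -0.09 with 0 of 17 genes 2-fold apart. The 3 were the aldo-keto reductase Akr1c13 (523 on FGFR3Act against 146 on FGFR3KO and 230 on FGFR3WT), Ugdh, which makes UDP-glucuronate (8578, 3697 and 3943), and the conjugate exporter Abcc3 (384, 53.1 and 178). Their folds over FGFR3WT were 2.27, 2.18 and 2.15. Abcc3 was below the floor on FGFR3KO. In the same list 6 of 18 genes were lower on FGFR3Act than on FGFR3WT, 3 of them by at least 1.5-fold: Slc1a4 (1.70-fold), Akr1b8 (1.59-fold) and Slc3a2 (1.56-fold).

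Among 15 other thioredoxin, glutaredoxin and repair genes, Srxn1, the sulfiredoxin that reactivates peroxiredoxins and a known NRF2 target, stood 2.08-fold above FGFR3WT on FGFR3Act. Its signals were 538 on FGFR3Act against 346 on FGFR3KO and 258 on FGFR3WT, the order seen for Gclm, Txnrd1 and Nqo1. Srxn1 was the 1 gene of the list 2-fold apart in this pair (6.67%), beside 8.92% of all genes. The list as a whole had a median of -0.07 with 0 genes at least 2-fold lower. Between FGFR3Act and FGFR3KO 26.7% of the list was 2-fold apart, 2 genes higher and 2 lower, beside 15.8% of all genes. Against FGFR3KO, FGFR3Act was 2.60-fold above in Sesn1 (343 and 132) and 2.29-fold below in Msrb1, a methionine sulfoxide reductase (1890 and 4327). Nucleoredoxin (Nxn) was at least 2.82-fold below, but in that pair it passed the floor on FGFR3KO alone, so the filter fixed its direction. The other gene 2-fold apart in that pair was Ccs, the copper chaperone for Sod1 (742 and 370), named after its values were seen. Sesn1, a p53-induced sestrin, was also 2.02-fold lower on FGFR3KO than on FGFR3WT. It was the only gene of the list 2-fold apart in that pair (6.67%), beside 5.54% of all genes.

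Of 12 other glutathione genes compared between FGFR3Act and FGFR3WT, 1 was 2-fold apart, Gpx7, a share of 8.33% beside 8.92% of all genes. This glutathione peroxidase relative of the endoplasmic reticulum had 80.6 on FGFR3Act, below the floor, 494 on FGFR3KO and 430 on FGFR3WT. That was at least 3.50-fold below wild type. In this pair Gpx7 passed the floor on FGFR3WT alone, so the filter fixed its direction. For the supply of NADPH, the pentose phosphate enzyme Taldo1 was the 1 of 12 genes that reached 2-fold over FGFR3WT on FGFR3Act (2047 on FGFR3Act against 965 on FGFR3KO and 1023 on FGFR3WT), a share (8.33%) near that of all genes 2-fold apart (8.92%), and the list median was -0.02. Malic enzyme Me1 was high on FGFR3Act and FGFR3WT (1946 and 1826) and low on FGFR3KO (937). Mitochondrial Idh2 was 2.04-fold lower on FGFR3Act than on FGFR3KO. In that pair 25% of the NADPH list was 2-fold apart, 2 genes higher and 1 lower, beside 15.8% of all genes.

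In the metal list, ceruloplasmin (Cp), the copper-carrying ferroxidase, stood 4.79-fold above FGFR3WT on FGFR3Act, with 1697 on FGFR3Act against 418 on FGFR3KO and 354 on FGFR3WT. It was 1 of 16 genes (6.25%) 2-fold apart there, beside 8.92% of all genes, and the median was 0.18. The zinc importer Slc39a8 was at least 2.35-fold above FGFR3KO on FGFR3Act. In that pair it passed the floor on FGFR3Act alone, so the filter fixed its direction. In the heme, selenium and cysteine list, 0 of 14 genes were 2-fold apart between FGFR3Act and FGFR3WT. On FGFR3KO Ahcy, which hydrolyses S-adenosylhomocysteine, was 2.15-fold above FGFR3WT by its brightest probe set, while its other probe sets gave log2 differences of 0.06 and 0.60. Alad of heme synthesis was 2.34-fold lower on FGFR3Act than on FGFR3KO. Between FGFR3Act and FGFR3KO 13.3% of this list and 12.5% of the metal list were 2-fold apart, beside 15.8% of all genes.

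Of the genes of NADPH oxidase and other oxidases, 10 could be compared between FGFR3Act and FGFR3WT, and 4 of these (Cybb, Ncf1, Ncf4 and Xdh) passed the floor on FGFR3Act alone, so the filter fixed their direction and no median is read. The 3 at least 2-fold higher, beside 4.14% of all genes, were phagocyte oxidase genes or their partner. They were Ncf4 (at least 2.67-fold), Cybb (at least 2.31-fold) and Rac2 (2.09-fold). For Ncf4 and Cybb the filter left no other direction, so this count is not read as a result either. Cybb, also a member of the macrophage list, had 279 on FGFR3Act against 18.7 on FGFR3KO and 10.2 on FGFR3WT, and the macrophage markers were summed at 43740 on that array. The amine oxidase Aoc3 was the 1 gene at least 2-fold lower there, by at least 2.53-fold. It had 83.1 on FGFR3Act, below the floor, 788 on FGFR3KO and 310 on FGFR3WT. In this pair Aoc3 passed the floor on FGFR3WT alone, so the filter fixed its direction too.

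**Figure D5:**
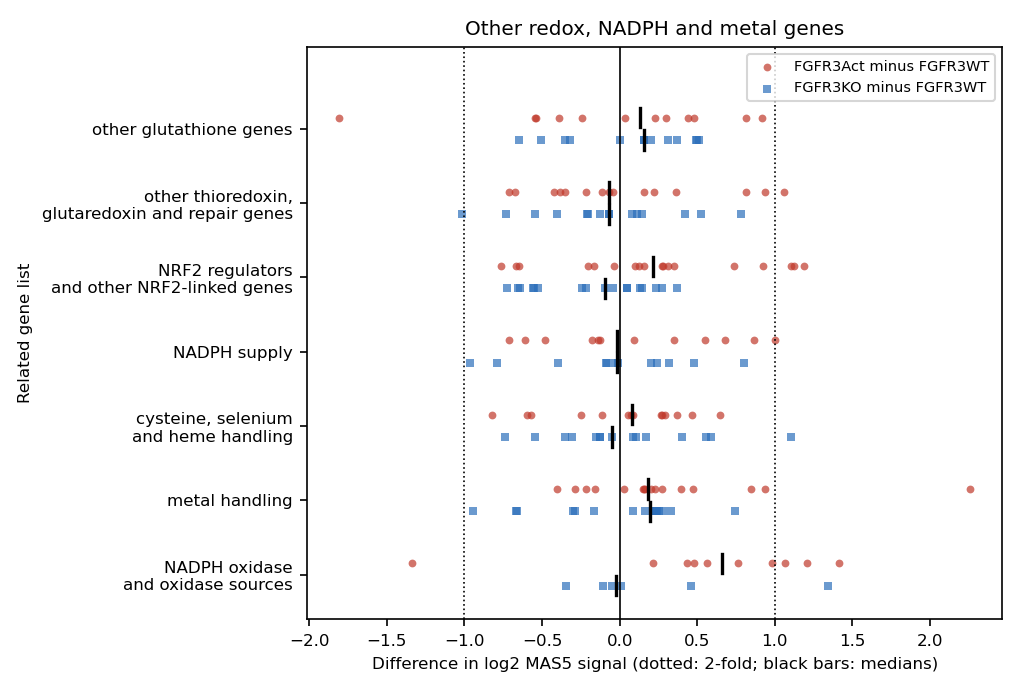
Difference in log2 MAS5 signal from the shared FGFR3WT array (x axis) for genes of the 7 related lists (y axis), 1 point a gene; red circles are FGFR3Act, blue squares FGFR3KO, black bars list medians and dotted lines 2-fold. Cp lies at 2.26 on FGFR3Act. Gpx7 lies at -1.81, a bound whose direction the filter fixed. In the oxidase list 4 of 10 FGFR3Act points are genes above the floor on that array alone, so its median bar is partly set by the filter.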

How the data were processed

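RNA of mouse dermal fibroblasts of 3 genotypes, 1 column each, was measured on Affymetrix arrays. The deposited intensity values, 1 per probe set and array, were made by the authors with MAS5, per the submitters' processing notes; its version and scaling target: not given in the sources used here. Of 9889 probe sets, 18 were controls. GEO's platform annotation gave 9039 a single symbol, 9027 of which were matched by gene identifier to RefSeq symbols (GRCm38.p6). Another 323 with several symbols were not named.

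Signals below the 40th percentile of an array were raised to it, log2 was taken, and genes above it on at least 1 array of a pair were compared. With 1 array per genotype no test was possible; differences of at least 2-fold describe size, and a fold with 1 array at the floor is a bound. The number of arrays limits precision. Alternatives (scaling by quantiles or medians, floors at the 20th and 60th percentiles, an offset of 12, both filters, probe set choices) are given at the end. The arithmetic was checked on simulated data (Python 3.11.15, pandas 2.3.3).

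Every member was accounted for. Signals are given for members at least 1.5-fold apart in a pair and for core glutathione, thioredoxin, NRF and metallothionein genes, and others in less detail. For each related list the up to 4 genes furthest apart among those at least 2-fold apart were named. Ccs, Mt3, Mt4 and 3 NRF2-linked genes at least 1.5-fold lower were added after their values were seen. Macrophage, mast cell, keratinocyte, endothelial and melanocyte markers were also read, and of the last 4 lists at most 2 genes were above the floor on any array. The members and lists were chosen with earlier results of these data known.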

Additional observations from a re-analysis of the deposited data

How the results depend on the processing

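Across 9 alternative settings the median log2 difference of the members kept its sign in all 3 pairs of arrays, and so did 87 of 96 differences of single members. The other 9 were at most 0.41 in size. The number of members 2-fold or more below FGFR3WT on FGFR3Act was 1 (Gpx3) in place of 3 after quantile normalisation and after median centring, where Gstt1 and Prdx4 lay just under 2-fold. It was 2 (Gpx3 and Prdx4) with the floor at the 60th percentile and with an offset. The number 2-fold or more above FGFR3WT was 2 in place of 3, without Nqo1, with the floor at the 60th percentile and without suffixed probe sets. It was 4 after median centring (with Gsto1) and with an offset (with the dim Gsta3). The number 2-fold or more above FGFR3KO on FGFR3Act was 2 in place of 1 after median centring and with the mean over probe sets (Txnrd1 and Nqo1), and with an offset and no floor (Txnrd1 and the dim Gstt2). After quantile normalisation that gene was Nqo1 (1.04) and not Txnrd1 (0.96). No count in FGFR3KO against FGFR3WT changed from 0. Nqo1 and Gstt1, near the floor, depended on where it was set. Leaving out suffixed probe sets removed Nqo1 and Gstm1. With 1 array per genotype, none of these settings measures the spread between cultures.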
